A study of Homo sapiens with 21 samples.

Results

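PLK2 encodes polo-like kinase 2, a serine/threonine kinase whose transcript is induced in neurons by synaptic activity. It was taken by its symbol from the gene table of the series, as 1 gene of 62656 in the count table and 1 of the 24879 genes with enough counts to be tested. The gene was chosen by its measured level in these libraries, compound against control, so that difference is given as a description with an interval and without a test. The cells were SH-SY5Y, a wild-type human neuroblastoma line, differentiated for 11 days into neuron-like cells. Cells in 6 groups then received 30 µM of a per- or polyfluoroalkyl substance (PFAS) for 24 h, in solutions with 1% methanol, a dose the series calls sub-toxic. PFOA and the longer PFDA are perfluoroalkyl carboxylic acids, and PFOS and the longer PFDS are sulfonic acids. 8:2 FTS is a sulfonic acid and 8:2 FTOH an alcohol of the fluorotelomer type. The seventh group was the control, for which the methanol content is not given in the sources used here. Each group has 3 libraries, 21 in all, of 1 cell line, and nothing in the labels says that the 3 come from separate cultures.

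Polo-like kinases bind their substrates through a C-terminal polo box domain, and several members of the family act in mitosis and centriole duplication. PLK2 is known in neurons as an immediate early gene whose product phosphorylates SPAR (the product of SIPA1L1) and lowers the strength of excitatory synapses after sustained activity. The kinase also acts in centriole duplication through CENPJ, and is a transcriptional target of p53.

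Total counts ran from 7680024 to 30429746 per library, with a median of 14633793, and the 3 control libraries lay between 22179910 and 24905803. The mitochondrial share of the counts was 6.33% in control replicate 3, 6.11% in 8:2 FTOH replicate 3, and above 5% also in PFDA replicate 2 and PFDS replicate 1. Of 17 neuronal and noradrenergic markers, 16 had a mean of at least 1 CPM in control, where CPM is the count scaled to a common library size by TMM. The noradrenaline-synthesising enzyme gene DBH was at 1150 CPM, whereas TH, the rate-limiting enzyme gene of catecholamine synthesis, was at 0.592 CPM. The summed level of the 17 markers was 7600 to 8060 CPM in control and 6820 to 8330 CPM in the compound libraries. By group it was 7120 to 7510 CPM with PFDA, 6970 to 7560 with 8:2 FTOH and 6820 to 7640 with PFOA. With PFOS it was 7220 to 7670 CPM, with 8:2 FTS 7030 to 7670 and with PFDS 7220 to 8330. The 16 mesenchymal-type and glial markers summed to 370 to 400 CPM in control and 326 to 404 CPM with the compounds. In control 10 of these 16 reached 1 CPM, the glial filament gene GFAP was at 0.99 CPM and PRRX1 was at 0, while TWIST1 was at 291 CPM. In bulk RNA, fewer cells of a type and less RNA per cell cannot be told apart, and the part of these shares and markers in the levels of PLK2 was not tested.

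PLK2 (ENSG00000145632) lies on chromosome 5, from 58453982 to 58460139 on the minus strand of hg38, with 4647 bases of exon in 10 blocks. No other annotated gene overlaps it, so reads of a neighbour on the opposite strand could not add to its count. The promoters of PLK2, EGR1 and FOS, immediate early genes all, are printed because all 3 had a lower mean in each compound group than in control. Each is 300 bases 5′ to 3′ on the strand of the gene, from 250 bases before to 50 after the gene's start in RefSeq (GRCh38.p14), and capitals mark motif matches, those on the other strand as their reverse complement. PLK2 is chr5:58460037-58460336 (minus strand), EGR1 is chr5:138465229-138465528 (plus strand) and FOS is chr14:75278578-75278877 (plus strand).
PLK2: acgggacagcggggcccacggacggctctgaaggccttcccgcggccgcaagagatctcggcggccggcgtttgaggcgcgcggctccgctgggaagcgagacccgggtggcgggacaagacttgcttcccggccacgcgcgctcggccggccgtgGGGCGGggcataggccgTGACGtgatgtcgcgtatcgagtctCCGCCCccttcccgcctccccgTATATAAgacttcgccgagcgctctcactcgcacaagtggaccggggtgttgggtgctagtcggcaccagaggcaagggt
EGR1: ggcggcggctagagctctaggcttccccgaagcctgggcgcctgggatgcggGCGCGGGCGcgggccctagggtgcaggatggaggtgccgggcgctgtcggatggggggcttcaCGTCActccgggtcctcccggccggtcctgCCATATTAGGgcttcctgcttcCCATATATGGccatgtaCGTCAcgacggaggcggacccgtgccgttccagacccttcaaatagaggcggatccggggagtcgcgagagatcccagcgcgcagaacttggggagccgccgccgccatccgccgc
FOS: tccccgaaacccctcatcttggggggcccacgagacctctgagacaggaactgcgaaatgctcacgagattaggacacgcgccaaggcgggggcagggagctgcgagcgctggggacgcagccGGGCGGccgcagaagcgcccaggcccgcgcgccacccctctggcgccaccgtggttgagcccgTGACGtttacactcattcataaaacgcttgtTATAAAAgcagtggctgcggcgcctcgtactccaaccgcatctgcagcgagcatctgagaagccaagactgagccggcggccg

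The motifs searched, on both strands, were TGACG, the core of the cyclic AMP response element bound by CREB, and GGGCGG, the motif of Sp1. The others were GCGNGGGCG, the motif of the EGR factors, TATANAA, the motif of the TATA-binding protein, and the CArG box of serum response factor. The PLK2 window was 70% G and C. It held TGACG with its first base 77 bases before the start, GGGCGG at 94 bases before and, on the other strand, at 52 bases before, and TATANAA at 30 bases before. The FOS window held the same 3 kinds of motif, with TGACG at 64, GGGCGG at 127 and TATANAA at 33 bases before the start. The EGR1 window held TGACG at 135 and 66, the EGR motif at 198 and CArG boxes at 105 and 83 bases before the start. Of 35116 promoters of the same length, 24.6% held TGACG, 45% GGGCGG, 9.1% TATANAA, 9.43% the EGR motif and 1.29% a CArG box. A match describes the letters of the window and is not a measured binding site.

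PLK2 was lower in each compound group than in control, at 64.9% to 74.9% of the control level. The control libraries were at 45, 48.6 and 41 CPM for replicates 1, 2 and 3. PFOA libraries were at 33.7, 32.1 and 32.2 CPM and PFOS libraries at 31.3, 36 and 29.8 CPM. The shorter-chain acids of both kinds thus lay in 1 range, below the lowest control library. PFDA libraries were at 32.1, 30.9 and 29.5 CPM. PFDS libraries were at 25.5, 31.7 and 42.3 CPM, a spread that held both the lowest and the highest of the 18 compound libraries. PFDS replicate 3 was the only compound library above a control library, at 42.3 against 41 CPM in control replicate 3. The fluorotelomer sulfonic acid 8:2 FTS gave 30.3, 30.3 and 26.6 CPM. The fluorotelomer alcohol 8:2 FTOH gave 29.4, 29.2 and 28.7 CPM, the closest set of 3, with a coefficient of variation of 1.24% against 25.6% for PFDS.

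**Figure D1:**
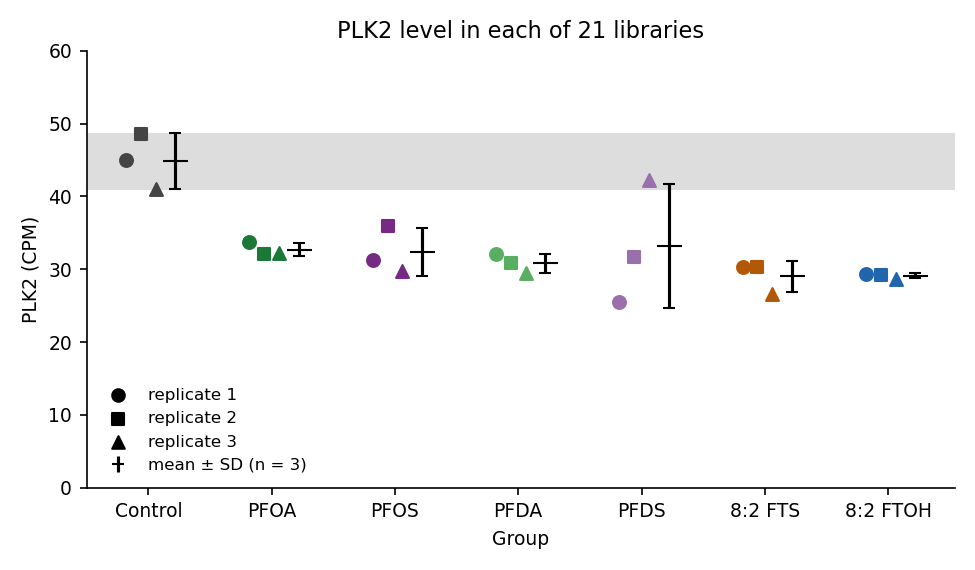
PLK2 in CPM (vertical axis, from 0) in each library of the 7 groups (horizontal axis); marker shapes are replicates, black bars are the mean ± SD of 3 libraries and the grey band spans the control libraries, 41 to 48.6 CPM. PFDS replicate 3, at 42.3 CPM, is the only compound library inside the band.

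The counts behind these levels ran from 222 reads in 8:2 FTOH replicate 3 (95% exact Poisson interval 194 to 253) to 1159 in control replicate 2 (1093 to 1228). These intervals cover counting error only. PFDS replicate 1, at 25.5 CPM after TMM scaling, had 302 reads (269 to 338) in a library of 11839106 counts, and PFDS replicate 3, at 42.3 CPM, had 1088 (1024 to 1155) in 27134957.

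Group means were 44.9 CPM ± 3.8 (SD, n = 3) in control, 33.2 ± 8.5 for PFDS, 32.7 ± 0.87 for PFOA, 32.4 ± 3.25 for PFOS, 30.8 ± 1.32 for PFDA, 29.1 ± 0.36 for 8:2 FTOH and 29 ± 2.15 for 8:2 FTS. Control stood first in this order, with a gap to PFDS larger than the SD of any group. Neighbouring compound groups in the order differed by less than the larger of their SDs, except PFDA and 8:2 FTOH, at 30.8 ± 1.32 and 29.1 ± 0.36 CPM, whose libraries do not overlap (29.5 CPM is the lowest with PFDA and 29.4 the highest with 8:2 FTOH). The log2 fold change against control in the edgeR model was -0.62 for 8:2 FTS (95% interval -0.85 to -0.40) and -0.62 for 8:2 FTOH (-0.85 to -0.39). It was -0.54 for PFDA (-0.77 to -0.32), -0.47 for PFOS (-0.70 to -0.25), -0.46 for PFOA (-0.68 to -0.23) and -0.42 for PFDS (-0.64 to -0.19), each with an SE of 0.11. All 6 comparisons share the 3 control libraries, so they are not independent of each other.

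For 5 of the 6 compounds the 3 libraries lay wholly below the 3 control libraries, PFDS being the exception. Among all tested genes, 8.46% did so for PFOA and 7.85% for PFDA, 7.41% for PFOS and 4.53% for PFDS, and 7.17% for 8:2 FTS and 6.98% for 8:2 FTOH. In all, 85 genes (0.342%) had all 18 compound libraries below all 3 control libraries. PLK2 was not one of them because of PFDS replicate 3, while EGR1 and FOS were. A negative fold change for all 6 compounds was found for 4156 genes (16.7%). By size, among 13097 genes with a mean of at least 5 CPM, the share with a fold change as low as that of PLK2 was 0.16% for 8:2 FTOH, 0.183% for PFDA, 0.191% for 8:2 FTS, 0.298% for PFOS, 0.405% for PFOA and 0.718% for PFDS. These positions describe a gene that was chosen for its levels.

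The PFDS value rested on single libraries. Without PFDS replicate 3 the log2 fold change was -0.65, and without PFDS replicate 1 it was -0.27. Over all fits that left out 1 library, the other 5 compounds ranged from -0.68 to -0.40. Without control replicate 3 alone, or without PFDS replicate 3 alone, all 6 compounds lay wholly below control. When control replicate 3 and 8:2 FTOH replicate 3, the libraries of highest mitochondrial share, were both left out, the 6 fold changes were -0.68 to -0.47.

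Depth differed between control and compounds, since no control library was below 22179910 counts and 11 of 18 compound libraries were below 20000000. The 7 compound libraries above 20000000 counts had PLK2 at 29.2 to 42.3 CPM (median 31.3) and the 11 below at 25.5 to 36 CPM (median 30.3). The lowest control library was at 41 CPM. The part of depth in the difference from control was not tested. The 3 compound libraries with a mitochondrial share above 5% were at 25.5 to 30.9 CPM and the other 15 at 26.6 to 42.3 CPM.

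**Figure D2:**
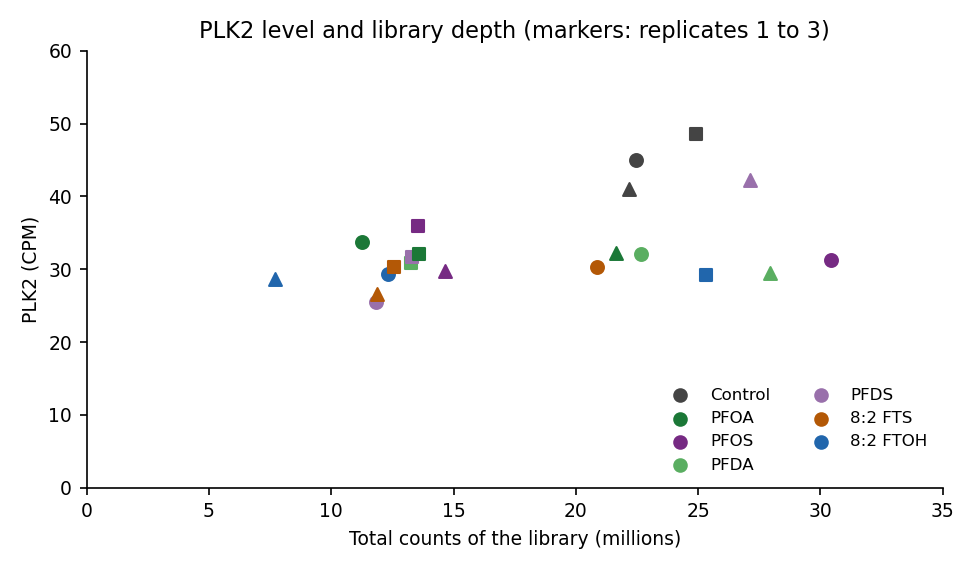
PLK2 in CPM (vertical axis, from 0) against the total counts of the library (horizontal axis), 1 point per library, with colours for the 7 groups and marker shapes for replicates. PFDA replicate 1, at 22668470 counts the compound library within the depth range of the controls, is at 32.1 CPM, and PFDS replicate 3, at 27134957 counts, is at 42.3 CPM.

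The 6 compounds were compared with each other for PLK2 at the same dose and time, in 15 pairs. The same compound libraries stood in the control comparisons with which the gene was chosen. PLK2 passed in 0 of the 15 pairs by edgeR's quasi-likelihood test, and 0 had an unadjusted p below 0.05. The lowest p was 0.0794, which became 0.516 when adjusted over the 15 pairs, and the lowest p adjusted over all genes of a pair was 0.805. DESeq2 also called 0. Differences ran from -0.21 to 0.13 on the log2 scale, and no 95% interval reached beyond a fold of 1.36 either way. A p above the threshold does not show that the compounds act alike. The intervals come from a spread shared by all groups, though PFDS varied most, with a coefficient of variation of 25.6%. Larger differences, above all those with PFDS, are therefore not excluded.

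By chain length, PFDA differed from PFOA by -0.08 (95% interval -0.31 to 0.15), and PFDS from PFOS by 0.06 (-0.17 to 0.29). By head group, PFOS differed from PFOA by -0.02 (-0.25 to 0.22) and PFDS from PFDA by 0.13 (-0.10 to 0.35). The fluorotelomer pair, which share a chain and differ in a sulfonic acid against an alcohol group, differed by 0.00 (-0.24 to 0.24, 8:2 FTS minus 8:2 FTOH). None of these named changes of structure came with a detected difference in PLK2. The largest distances were those of 8:2 FTS and 8:2 FTOH from PFDS, both -0.21 (-0.44 to 0.03), and without PFDS replicate 3 both became 0.02. Against PFOS, 8:2 FTS differed by -0.15 (-0.38 to 0.08). Against PFOA, 8:2 FTOH differed by -0.16 (-0.40 to 0.07). Over the whole table, 1 gene (0.00402%) was called for PFDS against PFOS, for 8:2 FTOH against PFOA and for 8:2 FTOH against PFDA, 2 genes (0.00804%) for 8:2 FTOH against PFOS, and 0 for the other 11 pairs.

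**Figure D3:**
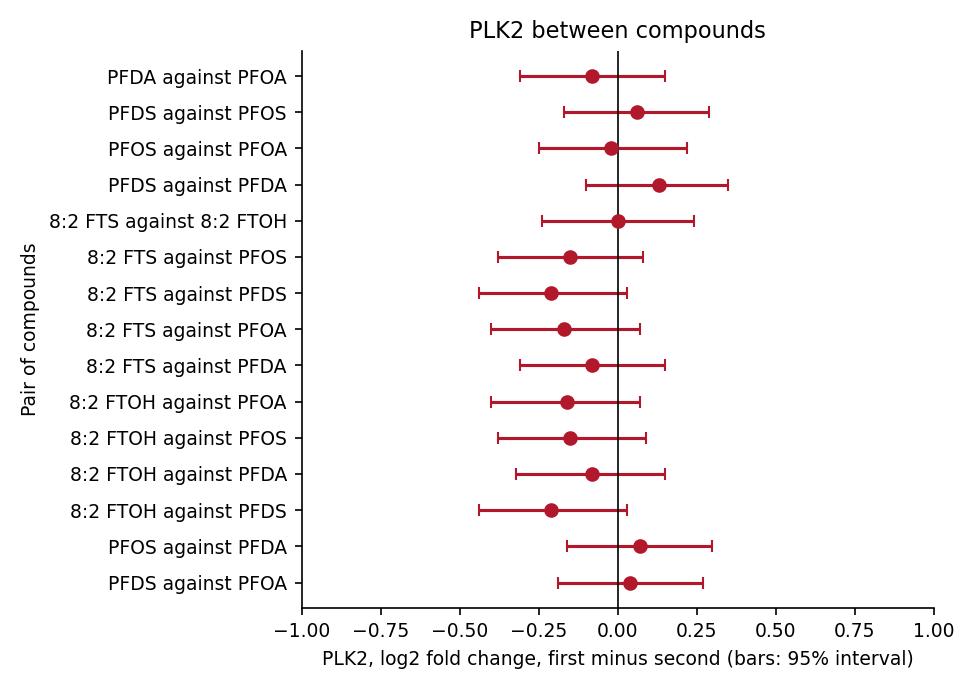
Difference in PLK2 between each pair of compounds (vertical axis), as the log2 fold change of the first minus the second (horizontal axis), with 95% intervals from the edgeR model as bars. All 15 intervals include 0, and the estimates run from -0.21 to 0.13.

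By level in control PLK2 was the third polo-like kinase. The levels were compared per kilobase (kb) of exon. In control, PLK1, the mitotic kinase, was at 12.3 CPM per kb ± 0.643 and PLK4, the kinase that starts centriole duplication, at 12 ± 0.649, which did not differ beyond their SDs. PLK2 followed at 9.65 CPM per kb ± 0.817 (SD, n = 3), and PLK3, a stress-responsive member, was at 3.37. With the compounds PLK2 lay at 6.25 to 7.14 CPM per kb, still between PLK4 and PLK3. PLK5, with 111 reads in all libraries together, was too low to be tested.

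Of the 3 other family members tested, 0 passed for any compound, where the share of all tested genes that passed in either direction was 0.0322% for PFOA and for 8:2 FTOH, 0.0241% for PFOS and for PFDS, 0.00804% for PFDA and 0.0844% for 8:2 FTS. Unadjusted, 2 of the 18 tests were below 0.05, and DESeq2 called 1. Over all genes and the 6 compounds, 7.75% of tests were below an unadjusted 0.05, 4.18% lower and 3.57% higher. DESeq2 called 0.414% of the 82417 tests for which it gave an adjusted p, where edgeR had 149274 tests. These shares are the background for the lists that follow, whose tests share the control libraries and repeat each gene over the compounds. They cover all 24879 tested genes, of which 13097 had a mean of at least 5 CPM, and were not matched to the lists by level. The part of level in the share of a list was not tested. PLK1 had its lowest adjusted p with PFOA, at 43.5 CPM ± 1.47 against 58.4 ± 3.06 (log2 fold change -0.42, adjusted p = 0.0661 by edgeR). DESeq2 put PLK1 past the threshold for PFOA (adjusted p = 0.00371), as did the edgeR fit without control replicate 3 (0.0155). With the other 5 compounds PLK1 lay at -0.19 to 0.00. PLK4 ranged from -0.18 to -0.03 and PLK3 from 0.02 to 0.22 over the 6 compounds.

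**Figure D4:**
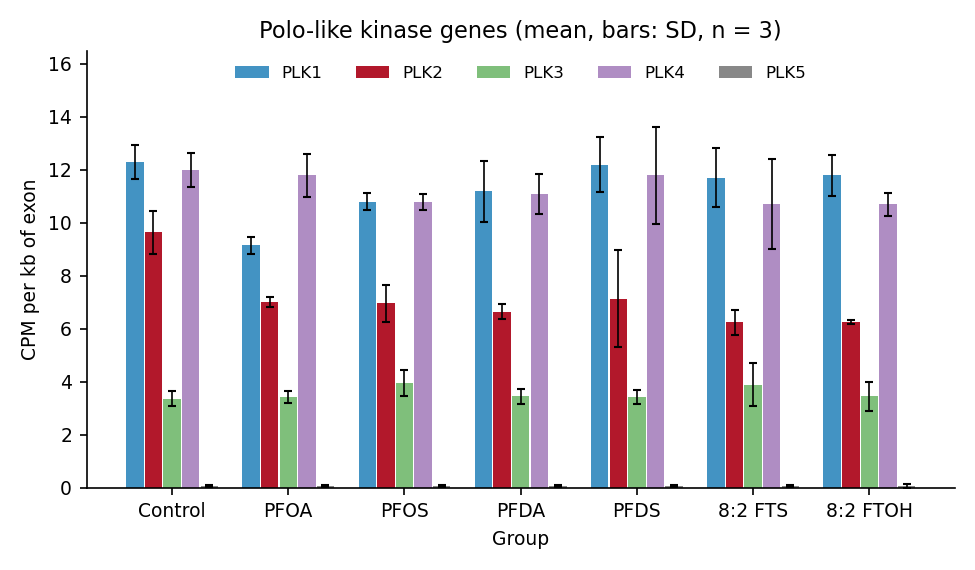
Level of the 5 polo-like kinase genes in CPM per kb of exon (vertical axis, from 0) in the 7 groups (horizontal axis); columns are means and bars the SD of 3 libraries. PLK2 goes from 9.65 in control to 6.25 to 7.14 with the compounds, between PLK4 above and PLK3 below.

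Genes whose products PLK2 phosphorylates or works with were measured too. Of 18 such genes, all tested, 0 passed for any compound with edgeR. Unadjusted, 23 of the 108 tests were below 0.05, 19 of them lower (17.6%, against 4.18% over all genes) and 4 higher (3.7% against 3.57%), and DESeq2 called 1. The spine regulator gene SIPA1L1 was at 152 CPM in control with fold changes of -0.09 to -0.01 over the compounds on the log2 scale, closer to 0 than PLK2 for each compound. The kinase gene CDK5, whose product primes SPAR for PLK2, was at 37.6 CPM and -0.27 to -0.10. The vesicle fusion ATPase gene NSF was at 45.2 CPM and -0.07 to 0.00. The lowest adjusted p in the list was that of CENPJ, the centriole length gene, with 8:2 FTS, at 64 CPM ± 3.14 against 81.5 ± 6.27 (log2 fold change -0.35, adjusted p = 0.11 by edgeR and 0.0417 by DESeq2). The glutamate receptor subunit gene GRIA2 with PFOA was at 0.28 (adjusted p = 0.324) and the CDK5 activator gene CDK5R1 with PFOA at -0.24 (0.356).

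Of the other immediate early and activity-regulated genes, EGR1 and FOS fell, and no other member passed. The list has 42 members besides PLK2, of which 33 had enough counts. EGR1 and FOS both fell with PFOA (7 genes in all, 0.0281%, were called lower there), PFOS (0.0161%), PFDA (0.00804%) and 8:2 FTS (0.0724%). Only EGR1 was called lower with PFDS (0.0201%), and only FOS with 8:2 FTOH (0.0281%), though both genes had negative fold changes with each compound. Unadjusted, 55 of 198 tests were below 0.05, 48 of them lower (24.2%, against 4.18% over all genes) and 7 higher (3.54% against 3.57%). DESeq2 called 7, and gave no adjusted p for EGR1 with PFOA or for FOS with PFOA, PFDA and 8:2 FTOH. Between 19 and 25 of the 33 had a negative fold change, with medians of -0.17 for PFOA, -0.16 for PFDA, -0.14 for 8:2 FTS, -0.10 for PFDS and for 8:2 FTOH and -0.08 for PFOS, where the median of all genes was 0.00 to 0.01.

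EGR1 encodes a zinc finger transcription factor and was at 35.8 CPM ± 8.82 in control, 28.7 to 45.7. With the compounds its libraries ranged from 10.2 CPM in the PFOS group to 26.8 CPM in the 8:2 FTOH group. The fold change was -1.53 for PFOS, -1.30 for 8:2 FTS, -1.21 for PFOA, -1.20 for PFDA and -1.02 for PFDS, all past the threshold, and -0.63 for 8:2 FTOH (adjusted p = 0.092 by edgeR, 0.04 by DESeq2). The 8:2 FTOH value depended on the controls: it was -0.41 without control replicate 1, and without control replicate 3 it was -0.77 and passed (adjusted p = 0.0178). FOS, which encodes a subunit of the AP-1 factor, was at 7.5 CPM ± 0.934 in control and at 1 to 5.69 CPM in the compound libraries. FOS had only 16 to 95 reads per compound library, against 144 to 193 per control library. Its fold change was -2.49 for PFOS, -2.29 for 8:2 FTS, -1.79 for PFOA, -1.48 for 8:2 FTOH and -1.42 for PFDA, all past the threshold, and -0.77 for PFDS (adjusted p = 0.579). The FOS call for PFDA was lost with library size scaling (adjusted p = 0.075) and in every fit without 1 library except that without control replicate 3. The call for 8:2 FTOH was lost without control replicate 1, control replicate 2, 8:2 FTOH replicate 2 or 8:2 FTOH replicate 3, with fold changes of -1.52 to -1.37. It was also lost without both libraries of highest mitochondrial share (-1.45, adjusted p = 0.0865). The call for PFOA was lost without PFOA replicate 3 (-1.60, adjusted p = 0.178).

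Over the 6 compounds the fold change of PLK2 spanned -0.62 to -0.42, against -1.53 to -0.63 for EGR1 and -2.49 to -0.77 for FOS. The estimate closest to 0 was that of PFDS for PLK2 and for FOS and that of 8:2 FTOH for EGR1, though no pair of compounds differed detectably in PLK2. Between compounds, EGR1 was higher with 8:2 FTOH than with PFOS by 0.89 (95% interval 0.58 to 1.21, adjusted p = 0.0324 over all genes by edgeR) and FOS higher with PFDS than with PFOS by 1.72 (1.11 to 2.34, adjusted p = 0.0253). For the same pairs PLK2 differed by -0.15 (-0.38 to 0.09) and by 0.06 (-0.17 to 0.29). The EGR1 and FOS differences are those that passed among 15 pairs tested per gene, without adjustment over the pairs.

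**Figure D5:**
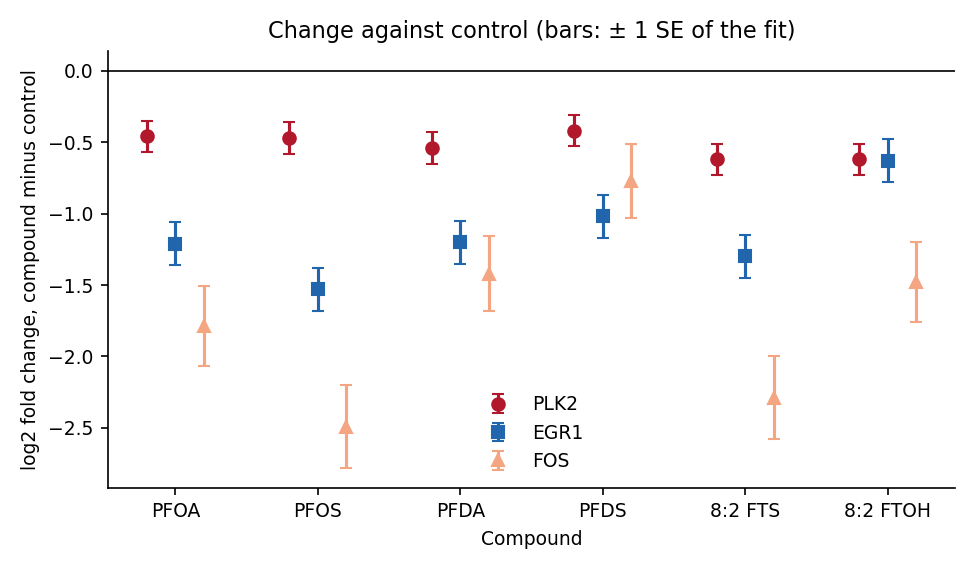
Log2 fold change against control (vertical axis) of PLK2, EGR1 and FOS for each compound (horizontal axis), with ± 1 SE of the edgeR model as bars. PLK2 lies between -0.62 and -0.42 for all 6 compounds, while EGR1 and FOS reach -1.53 and -2.49 with PFOS.

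Among other activity-regulated genes, KLF6, a zinc finger factor, was nearest to the threshold, at 31.3 CPM ± 3.19 with 8:2 FTS against 40.8 ± 2.31 (log2 fold change -0.38, adjusted p = 0.162). FOSB, the gene of a FOS paralogue, was at 0.363 CPM with PFOA against 1.28 in control (-1.80, adjusted p = 0.254). EGR4, NPAS4, NR4A2, IER3, KLF2, KLF4, CCN2, SIK1 and GADD45B were too low to test.

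The list of ERK pathway feedback genes holds genes switched on by ERK signalling, of which only some, such as the Sprouty genes, dampen it. It gave 0 calls among 15 tested of 16 with edgeR. Unadjusted, 25 of 90 tests were below 0.05, 24 of them lower (26.7%, against 4.18% over all genes), and DESeq2 called 1. Between 11 and 14 of the 15 were negative, with medians of -0.21 for PFOA and -0.17 for PFDA and of -0.13 to -0.06 for the other compounds. The Sprouty inhibitor gene SPRY4 with PFOA was at 58.9 CPM ± 2.76 against 78.1 ± 12.1 (log2 fold change -0.41, adjusted p = 0.0915 by edgeR, 0.0118 by DESeq2). SPRY2 with PFOA was at -0.33 (adjusted p = 0.181). The ETS factor genes ETV5 and ETV4, which overlap DGKG and DHX8 and are uncertain, were at -0.24 (0.299) and -0.28 (0.309) with PFOA. ETV4 was at -0.16 without control replicate 1, and at -0.41 and past the threshold without control replicate 3 (adjusted p = 0.0374).

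Other p53 target genes gave 0 calls among 26 tested with edgeR and 0 with DESeq2. Unadjusted, 11 of 156 tests were below 0.05, all 11 higher (7.05%, against 3.57% higher over all genes); BBC3 gave 5 of them and SESN2 gave 3. Medians ran from -0.01 for 8:2 FTOH to 0.08 for PFOS. The apoptosis gene BBC3 with 8:2 FTS was at 23.1 CPM ± 1.16 against 18.3 ± 1.44 (log2 fold change 0.34, adjusted p = 0.383). SESN2, a stress-induced inhibitor of growth signalling, with 8:2 FTS was at 0.27 (0.453). RRM2B, a ribonucleotide reductase subunit gene, with PFOA was at 0.23 (0.423), and at 0.14 without PFOA replicate 1 and 0.35 without control replicate 3. SPATA18 with PFOA was at 0.43 (0.426), and at 0.27 without PFOA replicate 3.

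The neuronal and noradrenergic markers gave 0 calls among 17 with edgeR. Unadjusted, 34 of 102 tests were below 0.05, 33 of them lower (32.4%, against 4.18% over all genes), and DESeq2 called 7. The growth cone gene GAP43 with 8:2 FTS was at -0.38 (adjusted p = 0.0732 by edgeR, 0.0337 by DESeq2). The neurofilament gene NEFM, which overlaps another gene, was at -0.59 with 8:2 FTOH (0.116 and 0.00294), and the synaptic vesicle gene SYP at -0.28 with PFOA (0.144 and 0.00678). GATA3, a noradrenergic lineage factor gene, was at -0.26 with PFOA (0.173 and 0.0146). The mesenchymal-type and glial markers gave 0 calls among 14 tested of 16 with either tool, and 6 of 84 tests (7.14%, against 7.75% over all genes) were below an unadjusted 0.05. Among them the intermediate filament gene VIM with PFDA was at -0.44 (adjusted p = 0.249). The part of either marker group in the PLK2 level was not tested.

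No gene overlaps PLK2 in its stretch of chromosome 5. Of 20 other genes within 1 Mb, the nearest was 31296 bp away and 6 had enough counts to test, none of them called for any compound by edgeR or DESeq2. Unadjusted, 3 of those 36 tests were below 0.05, all lower (8.33%, against 4.18% lower over all genes). The nearest tested gene, RAB3C, which encodes a synaptic vesicle GTPase, lies 122082 bp away and had log2 fold changes of -0.18 to -0.06. All 3 of the tests below 0.05 were of RAB3C, with PFDA, 8:2 FTS and 8:2 FTOH. PDE4D, a cyclic AMP phosphodiesterase gene 508899 bp away that overlaps the expressed gene PART1 and is uncertain, had -0.16 to -0.04. RAB3C and PDE4D both lay closer to 0 than PLK2 for each compound.

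The genes whose levels most resembled those of PLK2 were sought by Pearson's r of log2 CPM over the 21 libraries, among 13096 genes with a mean of at least 5 CPM. The libraries share the group differences, so r is a description, and the 1st and 99th percentiles of all genes were -0.62 and 0.67. The highest r belonged to MSL1, a subunit gene of a histone acetyltransferase complex (0.83), SSR4, of the translocon-associated complex (0.83), COLEC11, a collectin gene (0.82), and HEY1, a Notch target (0.82). PRSS12, a neuronal protease gene (0.81), INSIG1, a sterol-regulated retention factor (0.81), FDFT1, squalene synthase (0.81), and TBX3, a T-box factor (0.80), came next. EGR1 had an r of 0.63 (rank 254) and FOS, below the level minimum, 0.53. PLK1, PLK4 and PLK3 were at 0.29, 0.14 and -0.06. The lowest r belonged to ARL6IP6 (-0.86), ENSG00000273295 (-0.82), ENSG00000286742 (-0.82) and PCBP1-AS1 (-0.78). SSR4, PRSS12, TBX3, ARL6IP6 and PCBP1-AS1 overlap an expressed gene and are uncertain.

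Each of the 8 genes most like PLK2 had a fold change closer to 0 than that of PLK2 for every compound. INSIG1 was at 161 CPM ± 7.78 in control and at log2 fold changes of -0.43 to -0.20, FDFT1 at 291 CPM ± 3.14 and -0.36 to -0.16, and HEY1 at 43.4 CPM ± 5.01 and -0.43 to -0.23. ARL6IP6 was higher with each compound, by 0.18 to 0.26. These fold changes follow from the choice by likeness, so no p-value is given for them.

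Likeness within groups changed when PFDS, whose 3 libraries were spread widest, was left out. Over deviations from the group means, r was highest for ADAMTS9, an extracellular protease gene (0.87), TACC3, a spindle protein gene (0.86), and GPC2, UQCC2 and BRMS1 (0.84 each). ADAMTS9, TACC3 and UQCC2 overlap an expressed gene. Without the 3 PFDS libraries these values became 0.42, 0.75, 0.53, 0.51 and 0.53, and that of MSL1 went from 0.84 to 0.35. Over all libraries, MSL1 stayed at 0.82 without PFDS. Of the 8 genes of highest r, 4 were among the 8 highest without the PFDS libraries and 3 by Spearman's rank correlation.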

How the data were processed

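RNA of 21 libraries was sequenced after ribosomal depletion with a stranded kit, per the labels' protocols. Per the submitters' processing notes, quality was read with FastQC and MultiQC, HISAT2 aligned the reads to hg38, and SAMtools and featureCounts followed. Strand was ignored by featureCounts 2.0.1, per the file headers. Raw counts deposited by the authors cover 62656 genes, of which 67.52% have a symbol other than their ID. The authors' deposited normalized table holds signal values, counts divided by 1 size factor per library, for 37476 genes in 19 libraries. Multiplied back, 100% of its values were whole within 0.01 and 100% equalled the raw counts, which were used for every test.

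Low genes were removed by filterByExpr (edgeR 4.0.16, R 4.3.3), and the rest were scaled by TMM and fitted with a quasi-likelihood model over all 21 libraries (biological coefficient of variation 0.1124). Benjamini-Hochberg adjustment ran over all genes of a comparison, with a threshold of 0.05. Since separate cultures are not stated, p-values cover the spread among these libraries alone, and that spread may be technical. CPM used a prior count of 2 on the log2 scale for likeness. Tables and figures used Python 3.11.15, pandas 2.3.3 and matplotlib 3.10.9. Alternatives were DESeq2 1.42.0, other scalings and filters, the groups compared alone, the replicate number as a term, and leaving out libraries.

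The gene and the lists were chosen with earlier results of these data known. Named were the polo-like kinase genes, the 4 members with the smallest adjusted p in each list (fewer where fewer were tested), the main substrate genes, the nearest tested neighbours, the 8 highest and 4 lowest genes by r and the 5 highest by deviations, EGR1 and FOS. Single values of some genes that this rule selects are not reported here, while counts over the lists include them.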

Additional observations from a re-analysis of the deposited data

Results flagged for a closer look

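The effect of the compounds on EGR1 differed between 8:2 FTOH and PFOS, by 0.89 on the log2 scale (adjusted p = 0.0324 over all genes by edgeR), with the 3 libraries of 8:2 FTOH at 21.5 to 26.8 CPM and those of PFOS at 10.2 to 16.6 CPM. The effect on FOS differed between PFDS and PFOS, by 1.72 (adjusted p = 0.0253), with PFDS at 3.42 to 5.69 CPM and PFOS at 1 to 1.92 CPM. PLK2 was at 28.7 to 29.4 CPM with 8:2 FTOH, 25.5 to 42.3 CPM with PFDS and 29.8 to 36 CPM with PFOS. EGR1 and FOS were each tested in 15 pairs, and their p-values were not adjusted over the pairs. Their differences between compounds were not refitted under the alternatives.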

How the results depend on the processing

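PLK2 stayed below control for all 6 compounds in every alternative. Leaving out 1 library at a time gave log2 fold changes of -0.52 to -0.40 for PFOA, -0.56 to -0.41 for PFOS, -0.60 to -0.48 for PFDA, -0.65 to -0.27 for PFDS and -0.68 to -0.56 for both 8:2 FTS and 8:2 FTOH, and the number of compounds wholly below control was 5 or 6. Library size scaling gave -0.58 to -0.39. Splitting the compound libraries at 20000000 counts and leaving out the 3 PFDS libraries for likeness were chosen after seeing the data.

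No pair of compounds passed for PLK2 in any alternative, the lowest adjusted p being 0.558, and pairs near 0 changed sign. The difference of 8:2 FTS from 8:2 FTOH was 0.01 with library size scaling, 0.00 without a filter and -0.03 to 0.05 without 1 library. PFDS minus PFOA was -0.01 with library size scaling and -0.19 to 0.19 without 1 library. Without 1 library, PFDS ranged from -0.17 to 0.21 against PFOS and from -0.10 to 0.28 against PFDA, 8:2 FTS and 8:2 FTOH from -0.36 to 0.02 against PFDS, and PFOS from -0.01 to 0.12 against PFDA and from -0.09 to 0.04 against PFOA. The PFDS differences changed sign only without PFDS replicate 3, apart from that with PFOA under library size scaling.

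Calls over the 6 compounds, 0 in the reported fit, were as follows. The ERK feedback genes had 5 without a filter, 1 with DESeq2, 1 with only the groups compared, 2 without both libraries of highest mitochondrial share and 0 to 4 without 1 library (4 without PFDS replicate 3 and 2 without control replicate 3). Neuronal markers had 11, 7, 8, 1 and 0 to 4 in the same order (4 without PFDA replicate 2, 3 without PFDS replicate 3, 2 without PFDA replicate 3 or PFOA replicate 2, 1 without control replicate 3 or PFDS replicate 1), and 1 with library size scaling. The polo-like kinase family had 1 in each of the 4 settings named for the ERK genes and 0 to 1 without 1 library (1 without control replicate 3, PFDA replicate 2 or 3, PFDS replicate 1 or 3, or 8:2 FTS replicate 3). The substrates had 2 without a filter, 1 with DESeq2, 1 without both libraries and 0 to 1 without 1 library (1 without control replicate 3 or PFDS replicate 1 or 3). Of the 8 genes most like PLK2, 3 remained with Spearman, 4 without PFDS and 4 to 8 without 1 library (4 without control replicate 1, PFDS replicate 1 or 8:2 FTOH replicate 1, and 5 without PFDS replicate 2, PFOA replicate 1 or 8:2 FTS replicate 3). The causes were not tested. The immediate early list had 7 to 12 calls against 10. DESeq2 gave no adjusted p for EGR1 with PFOA or for FOS with PFOA, PFDA and 8:2 FTOH.

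Same-numbered libraries deviated together no more than others, with r of -0.22 to 0.24 over 63 pairs and a median of 0. Of 21 libraries, 7 correlated best with their own number. No pairing by number was detected, which does not show that none exists. With the replicate number as a block, the 6 PLK2 values were -0.62 to -0.42, 8:2 FTS minus 8:2 FTOH was 0.00, and FOS with PFDA had an adjusted p of 0.0569.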
